A study of Homo sapiens with 6 samples.

Results

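The BCL2 family genes described here are 10 of the 28395 genes in the count table, chosen by name with earlier results of these data known. They are the survival genes BCL2, BCL2L1 and MCL1, the pore-forming effectors BAX and BAK1, and the BH3-only death genes BID, BAD, BBC3, PMAIP1 and BCL2L11. Their transcripts were measured in TC28a2, a human chondrocyte line that has been immortalised, after cells were transfected with a ZEB1 overexpression vector (3 libraries) or with a control vector (3 libraries), at 48 h. ZEB1 is a transcriptional repressor of epithelial genes, and the comparison asks which transcripts differ when it is overexpressed, in a study of senescent cells in cartilage and meniscus. The libraries were made by DRUG-seq, a low-cost RNA-seq method that primes from the poly(A) tail. Both groups are transfected cultures of the same line. Whether cells that took up a vector were separated from those that did not is not stated in the labels. The promoter that drives ZEB1 is not given in the sources used here.

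Proteins of the BCL2 family decide whether the outer mitochondrial membrane stays closed. BCL2, BCL-XL (the main product of BCL2L1) and MCL1 hold BAX and BAK1 inactive, BH3-only proteins bind the survival proteins or the effectors, and active BAX and BAK1 open pores that release cytochrome c. The family is studied in senescence because senescent cells often depend on BCL-XL or BCL2 to survive, and drugs that block these proteins are used as senolytics. TC28a2 cells carry the large T antigen of a simian virus, which binds p53, and BBC3, PMAIP1 and BAX are known p53 targets.

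ZEB1 itself had 12267, 14047 and 6894 CPM (counts brought by TMM factors to a common library total) in the ZEB1 vector libraries, against 32.6, 20.8 and 21.4 CPM in the control libraries, replicates 1, 2 and 3 in each. It rose by 8.79 on the log2 scale (SE 0.31, edgeR adjusted p = 2.37e-13). The ZEB1 libraries held 1277632, 1621270 and 3316228 counts and the control libraries 5359200 to 5878640, so that a floor of 3 counts stands for 2.35, 1.85 and 0.905 CPM in ZEB1 replicates 1, 2 and 3 and for 0.510 to 0.560 CPM in the controls. The correlation with the controls in log2 CPM over all tested genes, which are not independent replicates, was 0.881 to 0.885 for ZEB1 replicate 1, 0.906 to 0.909 for replicate 2 and 0.948 to 0.951 for replicate 3. Of 14 chondrocyte markers, SOX9 alone was tested, with 68.3 ± 8.88 CPM in the ZEB1 libraries and 67.3 ± 14.5 CPM in the controls (SD, n = 3 each). COL2A1 had no count in the ZEB1 libraries and 3, 0 and 8 counts in the controls, and ACAN none in the ZEB1 libraries and 7, 0 and 6 in the controls, so the defining matrix genes of cartilage were nearly absent from both groups. Summed markers of other cell types spanned 6.22 to 14.0 CPM in the ZEB1 libraries and 12.6 to 15.8 CPM in the controls for 7 leukocyte genes, and 1.29 to 3.57 and 2.94 to 4.92 CPM for 6 epithelial genes. The 6 endothelial genes summed to 8.89 to 11.6 CPM in the ZEB1 libraries and 2.73 to 3.05 CPM in the controls, with PECAM1 at 4, 12 and 22 counts in the ZEB1 libraries and 9, 6 and 11 in the controls, and CDH5 at 0 in the ZEB1 libraries and 0, 4 and 1 in the controls. The part of these markers in the results was not tested.

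No member passed the edgeR threshold, an adjusted p of 0.05 over all 11329 genes tested (0 of 9 tested members, against 0.00883% of all genes, which is ZEB1 alone). At an unadjusted p under 0.05 there was 1 member lower with the ZEB1 vector, against 3.57% of all genes, and 0 higher, against 5.83%. That member was BCL2L1, at 0.545 times its control level. In BCL2L1 and BBC3 all 3 ZEB1 libraries lay below all 3 controls, 2 of 9 tested members against 8.16% of all genes. In 0 members they lay above, against 6.96%. BBC3 passed the filter on low counts through its control libraries, so its place below them was favoured by the filter. DESeq2 gave an adjusted p to 2 of the 9 members and called 0 of these (7.49% of all genes with one), and limma-voom called 0 of the 9, against 0.512% of all genes, as did limma-voom with sample quality weights, against 1.36%. These are bulk samples, in which fewer cells with a transcript and less of it per cell cannot be told apart.

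**Figure D1:**
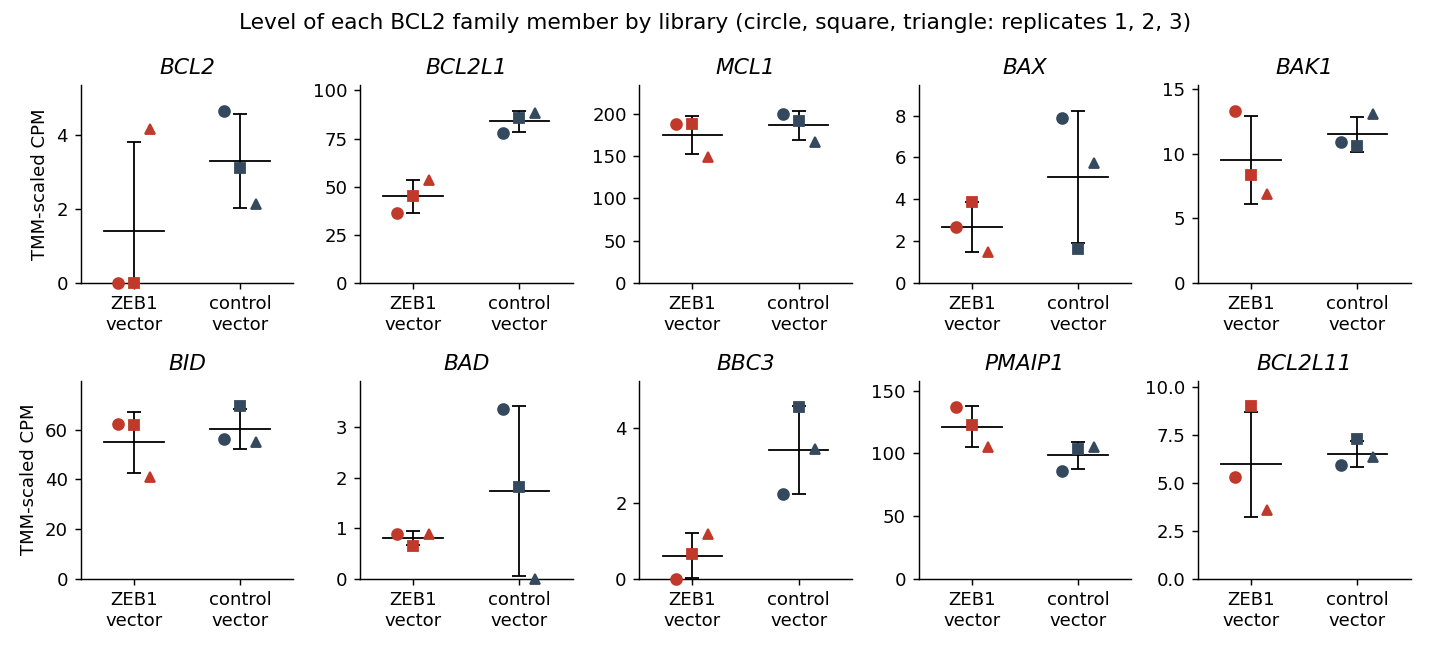
TMM-scaled CPM of the 10 BCL2 family members in each library, ZEB1 vector on the left and control vector on the right of each panel, with the mean and SD of the 3 libraries. The 3 ZEB1 points lie below the 3 control points in the BCL2L1 and BBC3 panels, and the groups overlap in the other 8.

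BCL2L1 (Entrez 598, chromosome 20, 31664452 to 31723963, GRCh38.p14) encodes BCL-XL, a survival protein of the outer mitochondrial membrane. It had 41, 70 and 179 counts in ZEB1 replicates 1, 2 and 3, against 486, 470 and 542 counts in control replicates 1, 2 and 3. Scaled, these were 36.4, 45.0 and 53.3 CPM in the ZEB1 libraries, against 78.0, 85.7 and 88.4 CPM in the controls. The highest ZEB1 library thus lay below the lowest control, and the lowest was the shallowest library. At the mean control level the ZEB1 libraries would have held 94.6, 131 and 282 BCL2L1 counts. BCL2L1 ranked 29 of 11329 genes by edgeR unadjusted p (0.000458), with a log2 fold change of -0.88 (SE 0.21) and an adjusted p of 0.174. The DESeq2 unadjusted p was 0.000197. DESeq2 gave an adjusted p to 2324 genes after its own filter on mean count, and BCL2L1 was not among them. The limma-voom adjusted p was 0.0869, or 0.0615 with sample quality weights.

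The BCL2L1 call depended on ZEB1 replicate 3 and on the filter on low counts. Without ZEB1 replicate 3 its log2 fold change was -1.04 and edgeR called it (adjusted p = 0.0153), 1 of the members against 3.38% of all genes tested. With no filter on low counts it was -0.90 and was called as well (adjusted p = 0.0207), against 0.693% of all genes. Its adjusted p over all 19 alternatives that gave one was 0.0153 to 0.873, with the highest value without control replicate 1. The direction held in each of them, with log2 fold changes of -1.04 to -0.66. With all libraries thinned to 1277632 counts, which matches only their totals, it was -0.73, and with ZEB1 replicate 3 as the only ZEB1 library -0.66. ZEB1 replicates 1 and 2, which had more ZEB1 RNA, also had the fewest counts, so among these 3 libraries sequencing depth and the ZEB1 level cannot be told apart.

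MCL1 (Entrez 4170, chromosome 1, 150574558 to 150579610) encodes a short-lived survival protein and had the most counts of the 10 genes. It had 187, 188 and 149 CPM in the ZEB1 libraries, against 200.3, 192 and 167 CPM in the controls, and the groups overlapped. The log2 fold change was -0.10 (SE 0.16, edgeR adjusted p = 0.903). BCL2 (Entrez 596, chromosome 18, 63123346 to 63320090), the founding member of the family, had 0, 0 and 14 counts in ZEB1 replicates 1, 2 and 3, against 29, 17 and 13 in the controls. The control level would have given 3.70 and 5.12 counts in ZEB1 replicates 1 and 2, which thus lay below it, while replicate 3 lay above it. The ratio of summed counts per total was 0.652, and its exact 95% interval, which covers counting error alone and not the spread between libraries, was 0.336 to 1.18. All 14 of the summed ZEB1 counts came from replicate 3. No difference in BCL2 was detected (log2 fold change -0.87, SE 1.06, edgeR adjusted p = 0.863), with few counts and ZEB1 libraries on both sides of the control level. The log2 fold change was -6.77 without ZEB1 replicate 3 (edgeR adjusted p = 0.176) and 0.33 with it as the only ZEB1 library.

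The effectors were thinly counted. BAX (Entrez 581, chromosome 19, 48954875 to 48961798) had 3, 6 and 5 counts in the ZEB1 libraries, against 49, 9 and 35 in the controls, which is 2.67, 3.86 and 1.49 CPM against 7.86, 1.64 and 5.71 CPM. The control libraries differed more among themselves than the group means did, and the log2 fold change was -0.99 (SE 0.87, edgeR adjusted p = 0.793). BAK1 (Entrez 578, chromosome 6, 33572552 to 33580276) had 13.3, 8.36 and 6.85 CPM in the ZEB1 libraries, against 10.9, 10.6 and 13.1 CPM in the controls. The groups overlapped, and the log2 fold change was -0.33 (SE 0.46, edgeR adjusted p = 0.879). RefSeq annotates the BAK1 pseudogenes BAK1P1 and BAK1P2, and how reads shared with them were assigned is not stated, so the BAK1 values are uncertain.

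Among the BH3-only genes, PMAIP1 and BID were well counted. PMAIP1 (Entrez 5366, chromosome 18, 59899996 to 59904305) encodes NOXA, which binds MCL1 and promotes its degradation. It had 137, 123 and 105 CPM in the ZEB1 libraries, against 85.8, 104 and 105 CPM in the controls, with ZEB1 replicate 3 inside the control range. Its log2 fold change of 0.29 (SE 0.18, edgeR adjusted p = 0.647) was the only one above 0 among the tested members. Scaled by library size alone it was 0.16, where the median of all genes was -0.14, against -0.01 with TMM, and it was 0.09 with trends in transcript length and GC content removed. BID (Entrez 637, chromosome 22, 17734138 to 17774665), which links death receptors to mitochondria after cleavage by caspase-8, had 62.2, 61.7 and 40.8 CPM in the ZEB1 libraries, against 56.1, 69.3 and 55.2 CPM in the controls. ZEB1 replicate 3 was the lowest of the 6, and the log2 fold change was -0.16 (SE 0.23, edgeR adjusted p = 0.883).

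BBC3 (Entrez 27113, chromosome 19, 47220824 to 47232860) encodes PUMA, which binds all the main survival proteins. It had 0, 1 and 4 counts in the ZEB1 libraries, against 14, 25 and 21 counts in the controls. The control level would have given 3.84, 5.30 and 11.4 counts, so each ZEB1 library lay below it. The ratio of summed counts per total was 0.229, and its exact 95% interval for counting error was 0.0717 to 0.564. The fitted log2 fold change was -2.13 (SE 1.11), and BBC3 did not pass the edgeR test (adjusted p = 0.587, and 0.302 to 1.000 over the 15 alternatives that gave a value). BBC3 passed the low-count filter through its control counts, so a difference in that direction was favoured by the filter.

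BCL2L11 (Entrez 10018, chromosome 2, 111120914 to 111168445), which encodes BIM, had 6, 14 and 12 counts in the ZEB1 libraries, against 37, 40 and 39 in the controls. In CPM the ZEB1 libraries, at 5.33, 9.00 and 3.57, lay on both sides of the controls, at 5.93, 7.29 and 6.36 (log2 fold change -0.16, SE 0.63, edgeR adjusted p = 0.963). BAD (Entrez 572, chromosome 11, 64269828 to 64284704), whose protein is held inactive by survival kinases, had 1, 1 and 3 counts in the ZEB1 libraries, against 21, 10 and 0 in the controls. It did not pass the low-count filter and overlaps GPR137, which had 565 counts over all libraries, so its counts are uncertain and no difference was detectable.

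**Figure D2:**
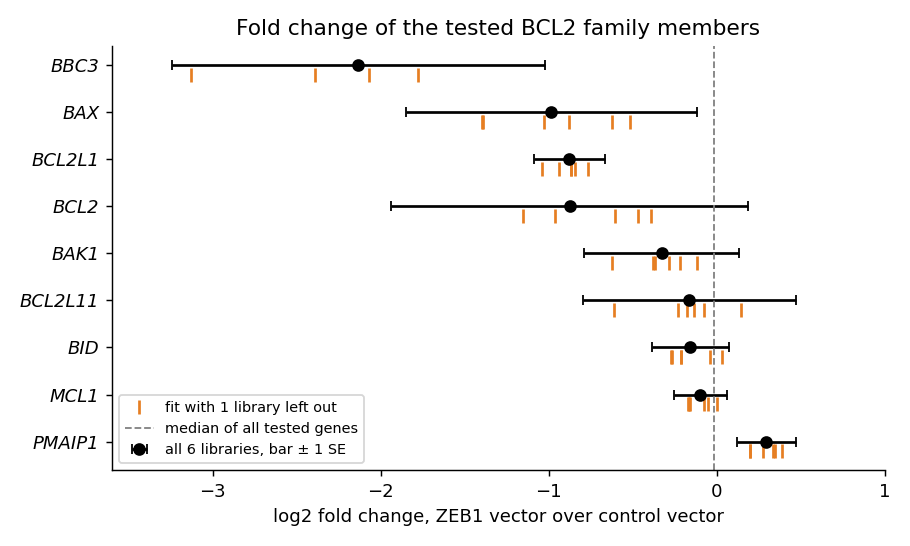
Log2 fold change of the 9 tested members, ZEB1 vector over control vector, with a bar of 1 SE on each side, and ticks for fits that leave out 1 library (4 ticks for BBC3, which missed the filter in the other fits). The BCL2L1 ticks span -1.04 to -0.76, and a tick for BCL2 without ZEB1 replicate 3, where both remaining ZEB1 libraries had no BCL2 count, lies outside the axis.

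The median log2 fold change of the 9 tested members was -0.33, against -0.01 over all tested genes. Genes below 0 made up 8 of the 9 members and 51.5% of all genes. However, BBC3 passed the filter through its control counts, BCL2 and BAX were thinly counted, and BAD was not tested. The median and the count therefore do not describe all 10. The members well counted in both groups, MCL1, PMAIP1, BID and BCL2L1, spanned -0.88 to 0.29.

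**Figure D3:**
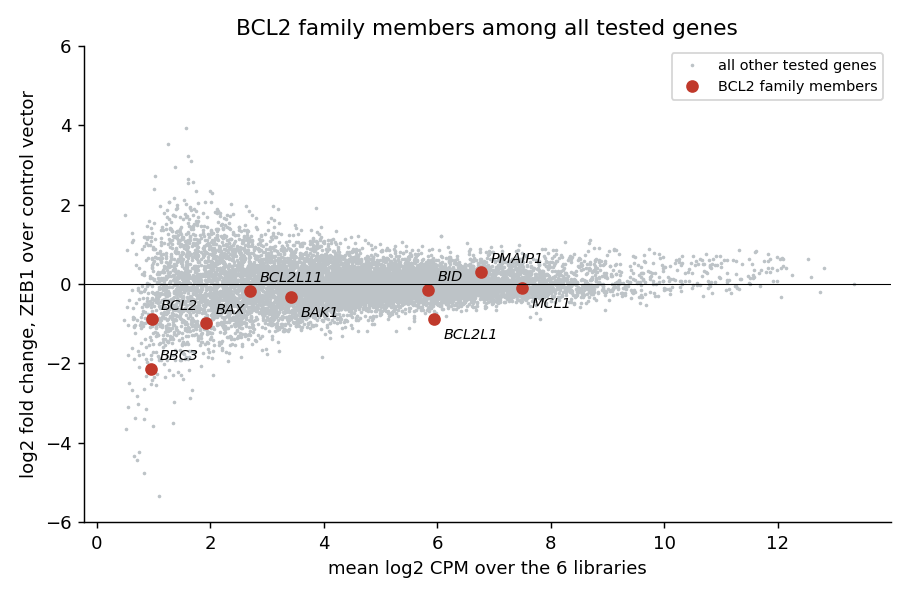
Log2 fold change (ZEB1 vector over control vector) against mean log2 CPM for all tested genes in grey and the 9 tested members in red; ZEB1 and 7 further genes lie outside the axis. BCL2L1, at -0.88, sits at the lower edge of the genes of its abundance, while MCL1, PMAIP1 and BID lie inside the cloud.

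Levels were compared between genes per kilobase of the longest GENCODE v29 transcript, as CPM per kb, although poly(A)-primed reads need not scale with length. With the ZEB1 vector PMAIP1 led at 62.4 ± 8.23 CPM per kb, followed by MCL1 (44.5 ± 5.69), BID (22.0 ± 4.90) and BCL2L1 (17.2 ± 3.24). In the controls PMAIP1 (50.5 ± 5.60) and MCL1 (47.4 ± 4.40) did not differ beyond their spread, and BCL2L1 (32.2 ± 2.08) stood above BID (24.1 ± 3.16; SD, n = 3 for each value). BCL2L1 and BID thus stood in opposite orders, but with the ZEB1 vector they did not differ beyond their spread. BAK1 followed at 4.30 ± 1.53 CPM per kb in the ZEB1 libraries and 5.20 ± 0.61 in the controls, and the other 5 members had group means of 0.19 to 1.97 CPM per kb in the ZEB1 libraries and 0.44 to 3.73 in the controls. Neighbours in the order of these 5 differed by less than their summed SDs, except that BCL2L11 stood above BCL2 in the controls.

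Shares within the family do not depend on scaling between libraries. BCL2L1 made up 8.18%, 10.2% and 14.6% of the counts of the 10 genes in ZEB1 replicates 1, 2 and 3, against 17.1%, 17.9% and 19.8% in control replicates 1, 2 and 3. The 95% Wilson intervals, which cover counting error only, were 6.09% to 10.9%, 8.17% to 12.7% and 12.7% to 16.6% in the ZEB1 libraries, against 15.8% to 18.6%, 16.5% to 19.4% and 18.4% to 21.3% in the controls. The groups did not overlap, but the interval of ZEB1 replicate 3 overlapped those of control replicates 1 and 2. PMAIP1 took 30.7%, 27.9% and 28.6% in the ZEB1 libraries, against 18.9%, 21.7% and 23.6% in the controls. These groups did not overlap either, but the interval of ZEB1 replicate 2 (24.7% to 31.4%) overlapped that of control replicate 3 (22.0% to 25.2%). MCL1 took 42.1%, 42.8% and 40.7%, against 44.0%, 40.0% and 37.4% in the controls, and the groups overlapped. The survival genes together held 53.2 ± 3.07% of the family's counts in the ZEB1 libraries and 59.4 ± 2.40% in the controls (SD, n = 3 each), a difference of -6.19 percentage points. BCL2L1 alone differed by -7.28 points and PMAIP1 by 7.70 points, while MCL1 differed by 1.42 points and each of the other members by less than 1 point. Shares sum to a whole, so these differences are not independent of each other.

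**Figure D4:**
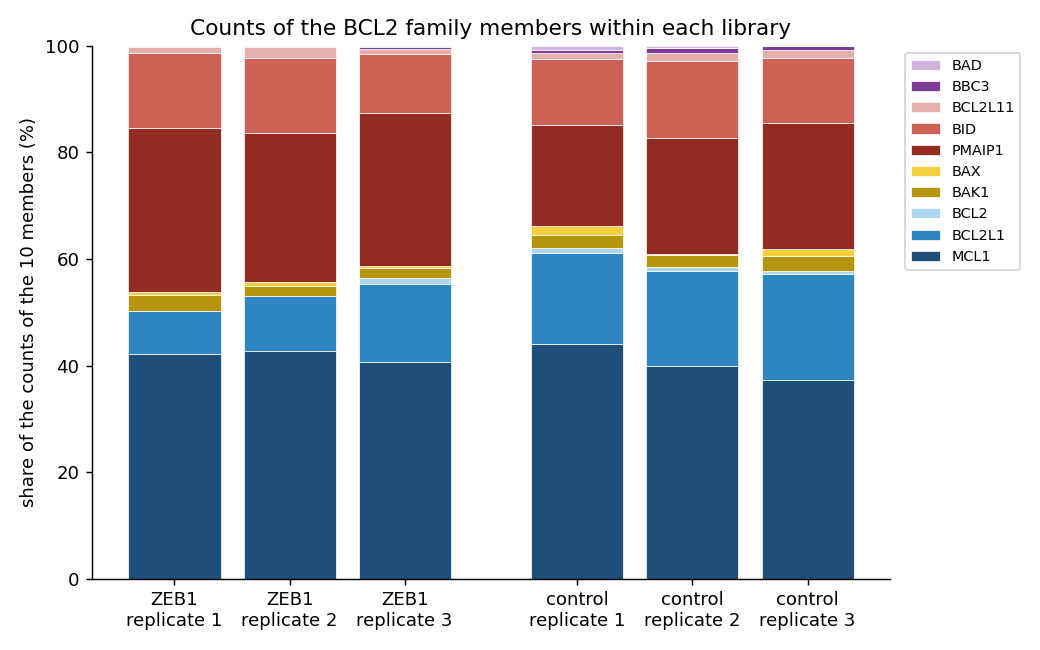
Share of the counts of the 10 BCL2 family members held by each, in percent, for the 3 ZEB1 vector libraries on the left and the 3 control vector libraries on the right. The BCL2L1 band is narrower in the ZEB1 libraries (8.18% to 14.6%) than in the controls (17.1% to 19.8%), and the PMAIP1 band is wider (27.9% to 30.7%, against 18.9% to 23.6%).

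Pairs of death and survival genes were set against each other as log2 ratios of counts within a library. The ratio of PMAIP1 to MCL1 was -0.45, -0.62 and -0.51 in the ZEB1 libraries, against -1.22, -0.88 and -0.66 in the controls, a difference of 0.40 with no overlap (0.25 without control replicate 1). The ratio of BBC3 to BCL2L1 averaged -5.75 ± 0.55 with the ZEB1 vector and -4.64 ± 0.43 in the controls (SD, n = 3 each). With so few BBC3 counts in the ZEB1 libraries it rests largely on the pseudocount of 0.5, and the difference of -1.11 was -0.63 with a pseudocount of 1. The ratio of BAX to BCL2, often read as a balance of death and survival, averaged 1.70 ± 2.72 in the ZEB1 libraries and 0.42 ± 1.17 in the controls, and its spread exceeded the difference. That ratio rests on the pseudocount as well, since BCL2 had no count in ZEB1 replicates 1 and 2, and the difference of 1.28 was 0.74 with a pseudocount of 1, 0.28 without ZEB1 replicate 2, 0.63 without control replicate 2 and 2.83 without ZEB1 replicate 3. For BAX to BCL2L1 the difference was 0.28, with SDs of 0.88 in the ZEB1 libraries and 1.21 in the controls. Its sign turned without control replicate 2 (-0.40) and without ZEB1 replicate 2 (-0.011). For BAK1 to MCL1 it was -0.20, with SDs of 0.38 and 0.29. The ratios are given as a description and were not tested.

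The start regions of 9 members, all but MCL1, were read from RefSeq (GRCh38.p14) and searched over the 250 bases before the start, on both strands, for motifs that ZEB1 is known to bind, the E-box CAGGTG and the Z-box CAGGTA, which differ in their last letter and so cannot match at one position. The start was the first that RefSeq lists for each gene, which is the outer end of the gene span except in BCL2, BID and BBC3, where it lies 321, 196 and 193 bases inside the span and all or part of the window lies within it. BAX held 1 E-box, which ends 98 bases before the start, and BBC3 and BCL2L11 held 1 Z-box each, 211 and 157 bases before it, read as TACCTG on the gene strand. Of 35116 such windows 17.5% held the E-box and 7.99% the Z-box. BCL2L1, the member with the smallest p, held neither, which says only that these letters are not in this window. A further 6 starts are listed for 3 members (BCL2L1, BID and BAD), and 0 of their windows held either motif. Shown 5′ to 3′ on the gene strand, with the motif in capitals, are the 2 p53 target genes with a match and BCL2L1 for comparison (BAX chr19:48954625-48954874, plus strand; BBC3 chr19:47232668-47232917, minus strand; BCL2L1 chr20:31723964-31724213, minus strand).
BAX: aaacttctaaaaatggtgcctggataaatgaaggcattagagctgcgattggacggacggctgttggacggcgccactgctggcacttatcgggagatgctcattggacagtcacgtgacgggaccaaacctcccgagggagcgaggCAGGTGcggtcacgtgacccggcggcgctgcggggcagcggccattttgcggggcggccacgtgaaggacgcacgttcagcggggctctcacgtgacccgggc
BBC3: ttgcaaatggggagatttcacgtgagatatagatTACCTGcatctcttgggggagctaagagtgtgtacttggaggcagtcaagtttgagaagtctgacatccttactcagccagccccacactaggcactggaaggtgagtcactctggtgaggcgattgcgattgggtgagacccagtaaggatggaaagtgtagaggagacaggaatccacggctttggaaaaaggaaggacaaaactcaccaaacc
BCL2L1: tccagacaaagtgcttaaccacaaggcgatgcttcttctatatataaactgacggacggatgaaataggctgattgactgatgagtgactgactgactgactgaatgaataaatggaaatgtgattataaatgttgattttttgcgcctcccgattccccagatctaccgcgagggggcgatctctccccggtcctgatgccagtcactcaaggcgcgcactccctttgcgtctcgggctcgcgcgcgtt

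Other BCL2 relatives were 15 genes, 8 of them tested, of which 1 was higher and 0 lower at an edgeR unadjusted p under 0.05 (5.83% and 3.57% of all tested genes) and 0 passed the adjusted threshold. BNIP3, a BH3-containing receptor for mitochondrial autophagy, had 132, 143 and 109 CPM in the ZEB1 libraries, against 65.9, 82.9 and 81.9 CPM in the controls. All ZEB1 libraries lay above the controls, with a log2 fold change of 0.73 (SE 0.18, edgeR adjusted p = 0.185). DESeq2 called it (adjusted p = 0.0112), as did edgeR without ZEB1 replicate 3 (adjusted p = 0.0165) and with no filter (adjusted p = 0.0465). It was called by limma-voom with quality weights (adjusted p = 0.0211) but not by limma-voom without them (adjusted p = 0.0623). Its relative BNIP3L had 50.9 ± 24.9 CPM in the ZEB1 libraries and 33.6 ± 10.7 CPM in the controls (SD, n = 3 each; edgeR adjusted p = 0.587). BCL2L12 had a log2 fold change of -0.37 (SE 0.20). Of the other classical members, the survival gene BCL2L2 (BCL-w) had 27.5, 20.6 and 23.5 CPM in the ZEB1 libraries, against 8.82, 19.5 and 17.3 CPM in the controls, with no overlap (log2 fold change 0.65, SE 0.37, edgeR adjusted p = 0.626). The effector relative BOK had 20.4, 18.6 and 54.5 CPM, against 43.6, 55.1 and 37.7 CPM in the controls, with ZEB1 replicate 3 apart from the other ZEB1 libraries. BOK was lower without that library (edgeR adjusted p = 0.0355) and had an adjusted p of 0.722 with it. BIK, HRK and BMF, the remaining BH3-only genes, had 14 counts or fewer in every library and were not tested.

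Downstream and upstream of the family, 54 further apoptosis genes were read, of which 46 were tested and 0 passed the edgeR adjusted threshold. At an unadjusted p under 0.05 there were 3 higher and 3 lower, against 5.83% and 3.57% of all genes, and the median log2 fold change of the 46 was -0.02. Among 10 tested mitochondrial death proteins 2 were higher and 1 was lower at that level, against the same 5.83% and 3.57%. CYCS, which encodes cytochrome c, had 256, 245 and 188 CPM in the ZEB1 libraries, against 135, 166 and 188 CPM in the controls, with ZEB1 replicate 3 at the level of the highest control (log2 fold change 0.49, SE 0.17, edgeR adjusted p = 0.310). Without that library edgeR called CYCS (log2 fold change 0.61, adjusted p = 0.0464), in a fit that called 3.38% of all genes. MTCH2, the mitochondrial receptor of cleaved BID, had a log2 fold change of 0.47 (SE 0.17, edgeR adjusted p = 0.350). AIFM1, which encodes apoptosis-inducing factor, had 63.4 ± 9.83 CPM in the ZEB1 libraries and 85.1 ± 7.44 CPM in the controls (SD, n = 3 each), with no overlap (log2 fold change -0.41, SE 0.20, edgeR adjusted p = 0.528).

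Caspases and their substrates had 0 of 8 tested genes at an edgeR unadjusted p under 0.05, against 5.83% of all genes higher and 3.57% lower. CASP2, an initiator caspase, had 17.8, 32.8 and 36.3 CPM in the ZEB1 libraries, against 40.6, 38.3 and 49.6 CPM in the controls, all below them (log2 fold change -0.52, SE 0.28). CASP8, which cleaves BID, had 24.0, 5.79 and 6.55 CPM, against 6.58, 5.10 and 6.85 CPM in the controls, so ZEB1 replicate 1 alone stood apart. The nuclease gene DFFB had a log2 fold change of 0.80 (SE 0.75). Caspase inhibitors were above 0 in 6 of 6 tested genes, against 48.5% of all genes, with a median of 0.17. At an edgeR unadjusted p under 0.05 there were 0 of them, against the same 5.83% and 3.57%. NAIP, on the same list, missed the filter on low counts and went the other way. It had 0, 0 and 0.894 CPM in the ZEB1 libraries, against 1.12, 1.46 and 1.80 CPM in the controls. BIRC3, BIRC2 and XIAP had log2 fold changes of 0.47 (SE 0.51), 0.19 (SE 0.22) and 0.20 (SE 0.24). The death receptor pathway had 0 of 6 tested genes at an edgeR unadjusted p under 0.05, against the same 5.83% and 3.57%. TNFRSF10B was at -0.25 (SE 0.31), TRADD at 0.39 (SE 0.48) and TNFRSF10A at -0.33 (SE 0.50).

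Of 16 regulators of the members, all tested, 1 was higher and 2 were lower at an edgeR unadjusted p under 0.05, against 5.83% and 3.57% of all genes. DYNLL1, the dynein light chain that binds BIM, had 1035, 789 and 517 CPM in the ZEB1 libraries, against 401, 530 and 452 CPM in the controls. ZEB1 replicate 3 lay inside the control range (log2 fold change 0.75, SE 0.20, edgeR adjusted p = 0.215). DYNLL1 was called by DESeq2 (adjusted p = 0.0119), by limma-voom (adjusted p = 0.0337) and by limma-voom with quality weights (adjusted p = 0.00290). It was also called by edgeR without ZEB1 replicate 3 (adjusted p = 0.00302) and with no filter (adjusted p = 0.00312). HUWE1, a ubiquitin ligase that marks MCL1 for degradation, had 86.1 ± 6.71 CPM in the ZEB1 libraries and 112 ± 10.3 CPM in the controls (SD, n = 3 each), with no overlap (log2 fold change -0.38, SE 0.18, edgeR adjusted p = 0.508). E2F1, a cell cycle factor that can induce BH3-only genes, had 60.4, 90.0 and 117 CPM, against 114, 131 and 127 CPM in the controls (log2 fold change -0.44, SE 0.20, edgeR adjusted p = 0.514).

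**Figure D5:**
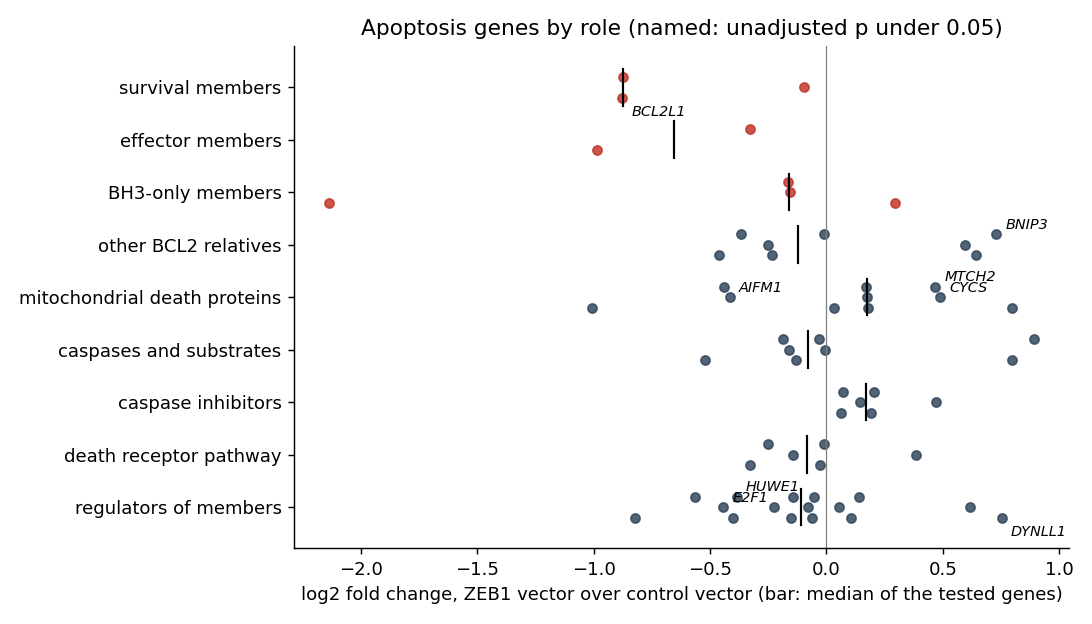
Log2 fold changes, ZEB1 vector over control vector, of the tested members in red and of other apoptosis genes in blue, by role, with a bar at each median and names for genes at an unadjusted p under 0.05. BCL2L1 is the member so named, at -0.88. Among the named genes BNIP3 and DYNLL1 lie highest, at 0.73 and 0.75, below CASP8 (0.89), CASP9 (0.80) and DFFB (0.80), which are not named.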

How the data were processed

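The authors deposited raw counts per Entrez gene for 6 libraries. Per the submitters' processing notes, which give no versions, HISAT2, featureCounts and Subread were used with GRCh38. Whether molecular identifiers were collapsed, the strand setting and the annotation release are not given in the sources used. A RefSeq table (GRCh38.p14) named 27745 IDs and left 650 unnamed. Counts were tested with edgeR 4.0.16 (R 4.3.3), using its robust quasi-likelihood test, TMM factors, filterByExpr and group as the only term, two-sided, with Benjamini-Hochberg adjustment over 11329 genes. Standard errors are approximate, being the fold change divided by the root of F. DESeq2 1.42.0 and limma 3.58.1 (voom) were alternatives, and the closing section gives these and the others. The edgeR step was tested on simulated data.

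Whether replicates were separate cultures is not stated in the labels, so p-values cover the spread of these libraries alone, and that spread may be technical. The members and lists were chosen with earlier results of these data known. Named are ZEB1, all members and up to 3 tested genes per other list by smallest p. Intervals and floors cover counting error only, since reads may not be independent molecules. Pair ratios used a pseudocount of 0.5.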

Additional observations from a re-analysis of the deposited data

How the results depend on the processing

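Over 20 alternatives the count of genes called, 1 as reported, was 127 with no filter, 174 with DESeq2, 58 with limma-voom, 154 with quality weights, 0 with ZEB1 left out of the table, 2 without ZEB1 replicates 1 and 2 together and 2 with length and GC trends removed (chosen after seeing the data). Leaving out 1 library at a time gave 1 to 409 (409 without ZEB1 replicate 3). The count of members called, 0 as reported, was 1 (BCL2L1) with no filter and 0 to 1 on leaving out single libraries. The median of the tested members, -0.33, was -0.046 with thinning and -0.15 with a mean count of at least 20, both of which left fewer members tested, -0.66 without ZEB1 replicates 1 and 2 together, and -0.47 to -0.12 on leaving out single libraries. On leaving out 1 library the log2 fold change spanned -0.17 to 0.0042 for MCL1, -0.27 to 0.033 for BID and -0.61 to 0.15 for BCL2L11, each above 0 without ZEB1 replicate 3. BAK1 had 0.11 with thinning and BCL2 0.33 without ZEB1 replicates 1 and 2 together. For these reversals, none of them called, the cause was not tested. The difference in the BAK1 to MCL1 ratio, -0.20, was 0.23 with thinning. On leaving out single libraries the ratio differences spanned -0.42 to -0.031 for BAK1 to MCL1, 0.25 to 0.53 for PMAIP1 to MCL1, -1.32 to -0.79 for BBC3 to BCL2L1, 0.28 to 2.83 for BAX to BCL2 and -0.40 to 0.78 for BAX to BCL2L1, the last below 0 without control replicate 2 and without ZEB1 replicate 2. With the replicate number as a block, edgeR called 1 gene and 0 members, and BCL2L1 had -0.91 (adjusted p = 0.174). Same-numbered libraries did not deviate together (correlations of -0.03, -0.01 and 0.01). Counting noise at this depth could hide a shared deviation, so these correlations do not settle whether the numbers pair the samples. PMAIP1, BAX and BBC3 kept their direction in every alternative that tested them. DESeq2 gave an adjusted p to no tested member but MCL1 and PMAIP1.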
